A study of Mus musculus with 16 samples.

Results

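The sodium pump beta subunit genes Atp1b1, Atp1b2 and Atp1b3 were examined on 16 microarrays that compared staggerer with control mouse brain. They were found by gene symbol and had 1 probe each, 3 of the 24107 probes on the array (3 of 18501 gene symbols). Atp1b1 was selected on its ratio in cortex, so that value is described with no test. Atp1b2 and Atp1b3 were included as the other beta genes of the family. The alpha subunit genes were not analysed here.

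The sodium pump, or Na,K-ATPase, exports sodium and imports potassium at the cost of ATP, and its gradients carry the action potential and the uptake of glutamate and other transmitters. Each pump pairs a catalytic alpha subunit with a glycosylated beta subunit, which the alpha subunit needs to fold and reach the cell surface and which also takes part in cell adhesion. In brain, Atp1b1 is the beta gene best known from neurons. Atp1b2 encodes the adhesion molecule on glia, which is prominent in astrocytes, and Atp1b3 is expressed in many cell types.

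Each array compared RNA of staggerer mutants, which carry a deletion in the nuclear receptor gene Rora, with RNA of controls from the same numbered litter at postnatal days 5 to 6. The labelled strain was C57BL/6. The labels do not give the controls' exact genotype, or whether animals were pooled. Tissue was the ventrobasal thalamus (VB) or the somatosensory cortex, with 4 litters each and 2 arrays per litter with the dyes swapped. In 1 array of each pair the mutant RNA carried Cy5 and in the other Cy3.

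The deposited values are log ratios of the 2 channels, read as log2, although neither the base nor the numerator is stated. Ratios are therefore called positive or negative, and none is read as higher or lower in the mutant. Columns were used as deposited, which takes all of them to run the same way, and this is not settled by the labels. The rank correlation between the swapped arrays of a litter ran from -0.366 to -0.242 in VB and from -0.034 to 0.0108 in cortex. Cortex and VB RNA were labelled by different methods, so tissue and method cannot be told apart. Between 17711 and 22580 probes had a value on an array. The number of arrays limits the precision. A ratio carries no level, so neither the tissue's own markers nor the amounts of the subunits could be checked. In bulk tissue, fewer cells of a type and less RNA per cell cannot be told apart. The single Rora probe averaged -0.13 ± 0.12 (log2; SD, n = 4; adjusted p = 0.555 by limma) in VB and -0.45 ± 0.26 (SD, n = 3; limma adjusted p = 0.358) in cortex, and where it lies relative to the deletion is unknown.

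In the RefSeq annotation of GRCm38.p6, Atp1b1 (probe 11815) lies at chr1:164437099-164458355, Atp1b2 (probe 3371) at chr11:69599728-69605978 and Atp1b3 (probe 6048) at chr9:96332655-96364431. The position of each probe within its gene was not used here. The 250 bases before the start of Atp1b1 and of Atp1b3 (its first listed start) are shown because RORα, the Rora product, binds the half-site AGGTCA in an AT-rich context. The half-site was searched on both strands, with the GC box GGGCGG and the CCAAT box, and capitals mark every match. Atp1b2 is not in the promoter table.

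Atp1b1, chr1:164458356-164458605, minus strand: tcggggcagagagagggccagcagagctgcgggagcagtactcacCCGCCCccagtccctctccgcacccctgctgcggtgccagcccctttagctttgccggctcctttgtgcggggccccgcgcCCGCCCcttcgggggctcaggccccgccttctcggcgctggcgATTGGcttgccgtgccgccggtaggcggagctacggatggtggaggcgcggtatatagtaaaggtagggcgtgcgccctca

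Atp1b3, chr9:96364432-96364681, minus strand: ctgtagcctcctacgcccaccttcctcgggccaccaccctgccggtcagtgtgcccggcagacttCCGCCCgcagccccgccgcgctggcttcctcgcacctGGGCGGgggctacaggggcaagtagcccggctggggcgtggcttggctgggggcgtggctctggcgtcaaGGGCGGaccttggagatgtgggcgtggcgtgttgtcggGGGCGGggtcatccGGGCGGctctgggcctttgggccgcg

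Neither window holds AGGTCA, which 14.0% of 32851 RefSeq promoter windows of the same length hold. The Atp1b1 window holds 2 GC boxes and 1 CCAAT box, all on the other strand, and the Atp1b3 window holds 5 GC boxes, 4 of them on the gene's strand, and no CCAAT box. A GC box is present in 32.7% of all windows and a CCAAT box in 33.8%. The second listed Atp1b3 start, at chr9:96363716-96363965, holds none of the motifs. These matches describe letters in a window.

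In cortex, the log2 ratio of Atp1b1 on the arrays with mutant RNA in Cy5 was -0.487, -0.450, -0.996 and -0.168 in litters 1 to 4. On the arrays with mutant RNA in Cy3 it was -1.597, -0.803, -1.247 and 0.755. The ratio was thus negative on 7 of 8 arrays, and the exception was the litter 4 array with mutant RNA in Cy3. Among 9980 probes with all 8 cortex values, 4.65% were negative on at least 7 arrays. The arrays of a pair had the same sign in 3 of 4 litters, which holds for at least 3 litters in 31.2% of those probes.

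Averaged within litters, Atp1b1 had log2 ratios of -1.04, -0.63, -1.12 and 0.29 in cortex. Litters 1, 2 and 3 lay well below 0 and litter 4 above it, an arrangement seen in 7.30% of probes. The mean was -0.62 ± 0.65 (SD, n = 4; 0.649-fold), and 55 of 16521 features tested in cortex had a lower mean. Without litter 4 the mean was -0.93 ± 0.27 (SD, n = 3; 0.525-fold). The 2 dye assignments gave means of the same sign, -0.53 ± 0.34 with mutant RNA in Cy5 and -0.72 ± 1.04 with mutant RNA in Cy3 (SD, n = 4 each). Because the signs agree, reading the columns as Cy5 over Cy3 would cancel most of it and leave 0.099. The gene was picked for this ratio, and nothing further is drawn from its size or its place among features.

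**Figure D1:**
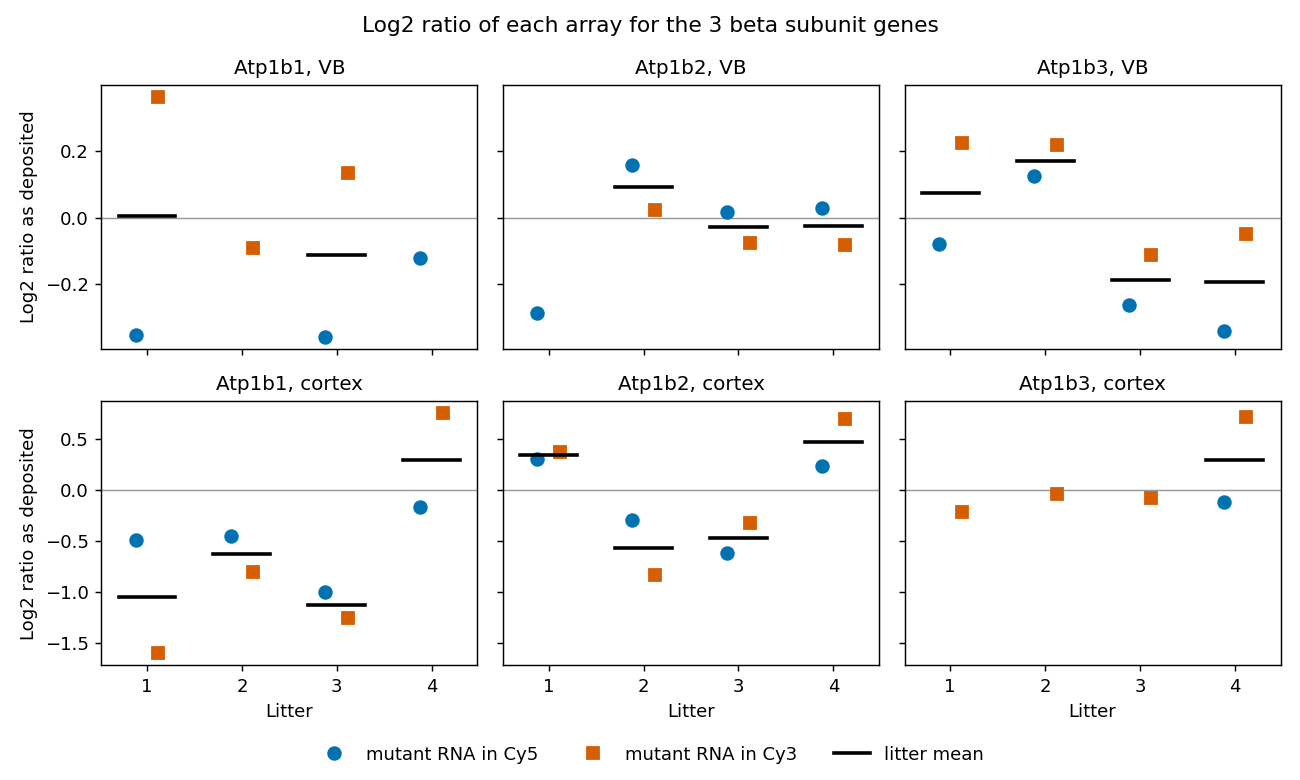
Log2 ratio (vertical axis, as deposited) of Atp1b1, Atp1b2 and Atp1b3 by litter (horizontal axis) in VB (top row) and cortex (bottom row, with a wider scale). Circles are arrays with mutant RNA in Cy5, squares those with mutant RNA in Cy3, and bars the litter mean where both arrays had a value; in cortex Atp1b1 is negative on 7 of 8 arrays, Atp1b2 changes sign between litters and not within them, and Atp1b3 has 1 complete litter.

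In VB, Atp1b1 was measured on 6 of 8 arrays. The values were -0.351, -0.357 and -0.121 with mutant RNA in Cy5 (litters 1, 3 and 4) and 0.361, -0.092 and 0.134 with mutant RNA in Cy3 (litters 1, 2 and 3). All values of the first assignment lay below all values of the second. Only litters 1 and 3 had both arrays, with means of 0.005 and -0.11, so the gene fell under the minimum of 3 complete litters and was not tested. The litter mean was -0.053 ± 0.082 (SD, n = 2; 0.964-fold). Counting litters with 1 array, the mean over 4 litters was -0.080 (limma adjusted p = 0.740). Within the Cy5 assignment, whose arrays run the same way whatever the numerator is, the mean was -0.28 ± 0.13 (SD, n = 3; limma adjusted p = 0.158). Within the Cy3 assignment it was 0.13 ± 0.23 (SD, n = 3; limma adjusted p = 0.533). In either assignment alone, genotype and dye coincide and cannot be told apart.

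Atp1b2, the glial beta subunit, had cortex log2 ratios of 0.310, -0.288, -0.614 and 0.235 in litters 1 to 4 with mutant RNA in Cy5. With mutant RNA in Cy3 the values were 0.378, -0.835, -0.322 and 0.703. Litters 1 and 4 were positive on both arrays and litters 2 and 3 negative on both, so the dye-swapped arrays shared their sign within each of the 4 litters while the sign differed between litters. This arrangement, singled out after the values were seen, holds for 2.06% of the 9980 probes. Litter means were 0.34, -0.56, -0.47 and 0.47. Their mean was -0.054 ± 0.54 (SD, n = 4; 0.963-fold; 95% interval -0.41 to 0.30; limma adjusted p = 0.976), so the mean lay far inside the spread between litters. That spread was wide, as 2.17% of features tested in cortex had a larger SD and the median SD was 0.21.

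In VB, Atp1b2 was measured on 7 of 8 arrays. The values with mutant RNA in Cy5 were -0.284, 0.158, 0.017 and 0.030 in litters 1 to 4, and with mutant RNA in Cy3 they were 0.024, -0.076 and -0.082 in litters 2 to 4. Litters 2, 3 and 4 had both arrays, with means of 0.091, -0.030 and -0.026. The mean was 0.012 ± 0.069 (SD, n = 3; 1.01-fold; 95% interval -0.16 to 0.19; limma adjusted p = 0.977). Of features tested in VB, 84.9% had a larger SD, each taken over its own 3 or 4 litters. Litter 1, whose single array held the value farthest from 0, does not enter, and counting litters with 1 array turned the mean to -0.062 (limma adjusted p = 0.844). The VB minus cortex difference for Atp1b2 was 0.066 (95% interval -0.43 to 0.56; limma adjusted p = 0.962), where 0.0985% of 12178 features were called.

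Atp1b3, the broadly expressed beta subunit, had VB log2 ratios of -0.078, 0.123, -0.261 and -0.340 in litters 1 to 4 with mutant RNA in Cy5 and of 0.223, 0.217, -0.113 and -0.048 with mutant RNA in Cy3. The dye assignments overlapped, and the arrays of a pair had the same sign in 3 of 4 litters, as in at least 3 litters for 21.6% of 8679 VB probes with all 8 values. Litter means were 0.073, 0.17, -0.19 and -0.19, positive in litters 1 and 2 and negative in litters 3 and 4. The mean was -0.035 ± 0.18 (SD, n = 4; 0.976-fold; 95% interval -0.21 to 0.14; limma adjusted p = 0.923).

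In cortex, Atp1b3 had a value on 1 of the 4 arrays with mutant RNA in Cy5, -0.117 in litter 4. With mutant RNA in Cy3 its values were -0.213, -0.036, -0.079 and 0.714. Litter 4 was the single complete litter, with a mean of 0.30, and the gene was not tested. On the litter 4 cortex array with mutant RNA in Cy3 all 3 genes were positive, at 0.755, 0.703 and 0.714, and 4.22% of the 22580 probes on that array were at or above the lowest of them. The rank correlation of that array with the others of its dye assignment was 0.0608 to 0.1145, against 0.0608 to 0.1648 over the assignment as a whole.

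Of the 3 genes, Atp1b2 and Atp1b3 were tested in VB and Atp1b2 in cortex, and 0 were called by limma at an adjusted p under 0.05 (0 also at an unadjusted p under 0.05). The share of all features called was 0.311% of 16066 in VB and 0.0605% of 16521 in cortex. At these rates, members without a call are the usual case. A p that misses the threshold does not show that the ratio is 0, and the intervals given for each gene show the range of ratios the litters allow.

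Marker lists of cell types gave the following ratios in the same cortex litters. Among all features tested in cortex, 0.0605% were called by limma and 7.90% had an unadjusted p under 0.05. Of 10 neuronal genes such as Tubb3 and Snap25, 7 were tested (3 positive, 4 negative, 0 called by limma, 4 at an unadjusted p under 0.05), with a median log2 ratio of -0.035. Their mean in litters 1 to 4 was 0.043, 0.10, -0.36 and 0.30, highest in litter 4, where Atp1b1 and Atp1b2 were also highest. In litters 1 and 2 the neuronal mean was positive, whereas Atp1b1 was negative (-1.04 and -0.63). Of 11 astrocyte genes, all were tested (3 positive, 8 negative, 1 called by limma, 3 at an unadjusted p under 0.05). The called gene had a negative ratio. The median of the list was -0.16, with litter means of -0.15, -0.62, -0.026 and -0.24. The lowest astrocyte mean, in litter 2, fell in the litter with the lowest Atp1b2 mean, but litter 3, where Atp1b2 was nearly as low, had the highest. The part of cell composition in the ratios was not tested. Of oligodendrocyte, microglia, vascular, blood, and choroid plexus and meninges genes, 0 were called by limma in cortex (0 at an unadjusted p under 0.05, against 7.90% of all features), with medians from -0.16 to 0.034.

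In VB, 1 of 10 astrocyte genes tested was called by limma, with a negative ratio (0.311% of all features were called). An unadjusted p under 0.05 was found for 4 of them (10.2% of all features), and the list median was 0.0049. Of 7 neuronal genes 0 were called and 0 had an unadjusted p under 0.05, with a median of -0.061. The litter means of the neuronal genes were 0.0044, -0.087, -0.20 and 0.026, and those of the astrocyte genes -0.014, -0.0019, -0.078 and 0.032. Both lists were lowest in litter 3, where Atp1b1 (-0.11), Atp1b2 (-0.030) and Atp1b3 (-0.19) were negative, and highest in litter 4, where Atp1b2 (-0.026) and Atp1b3 (-0.19) were negative too. The other cell type lists had 0 calls by limma, 2 genes at an unadjusted p under 0.05 (1 oligodendrocyte and 1 vascular) and medians from -0.11 to 0.079.

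Other genes of the pump and of ion transport were described from a list of 44, of which 36 had a probe. In each tissue 27 were tested, not all of them the same genes. In VB, 13 were positive and 14 negative, 0 were called by limma, and 3 had an unadjusted p under 0.05 (10.2% of all features did). The median was -0.00044, against 0.0057 for all features, of which 47.5% were negative. In cortex, 7 were positive and 20 negative, 0 were called, and 4 had an unadjusted p under 0.05 (7.90% of all features). The median there was -0.084, against -0.0031 for all features, of which 50.9% were negative. By litter the list mean in cortex was 0.036, -0.15, -0.058 and -0.097, so litter 4 was not raised as it was for Atp1b1.

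Among the regulators, FXYD genes encode small membrane proteins that bind the pump and tune it. All 5 tested in VB were negative (median -0.13), where 47.5% of all features were. Of 5 tested in cortex, 4 were negative (median -0.10), where 50.9% of all features were. The sets differ, as Fxyd1 and Fxyd4 were tested in VB alone and Fxyd2 and Fxyd6 in cortex alone. In VB, Fxyd1, Fxyd3 and Fxyd4 had negative means in both dye assignments, each taken over all arrays with a value. Fxyd5 and Fxyd7 averaged 0.13 and 0.30 with mutant RNA in Cy5 but -0.27 and -0.36 with mutant RNA in Cy3. In cortex, Fxyd2 and Fxyd5 differed in sign between the assignments. Fxyd7, a brain FXYD gene, had cortex ratios of -0.27, -0.68 and -0.32 in litters 2 to 4 (mean -0.42 ± 0.22, SD, n = 3; limma adjusted p = 0.391). These 3 litters were negative, and litter 1, which lacked a complete pair, does not enter that mean. Over all arrays with a value, the cortex mean of Fxyd7 was -0.097 with mutant RNA in Cy5 and -0.65 with mutant RNA in Cy3. The Cy5 mean takes in the litter 1 array, which was positive, so the 2 assignments do not cover the same litters. Of the NKAIN genes, whose products bind beta subunits of the pump, 2 of 2 were positive in VB and 1 of 3 in cortex. Atp1b4, a beta-like gene known from muscle, had -0.068 ± 0.14 in VB and -0.15 ± 0.13 in cortex (SD, n = 4 each; limma adjusted p = 0.799 and 0.804).

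Of transporters that use the ion gradients set by the pump, 6 were positive and 4 negative in VB, and 3 were positive and 6 negative in cortex. Slc12a5, the neuronal potassium-chloride cotransporter KCC2, had cortex ratios of -0.41, -0.48, -0.64 and 0.013 (mean -0.38 ± 0.28, SD, n = 4; limma adjusted p = 0.413). Like Atp1b1 it was negative in litters 1 to 3 and above 0 in litter 4, where it lay close to 0 and Atp1b1 was 0.29. These signs hold for 7.30% of the 9980 probes with all 8 cortex values. Slc1a3, the glial glutamate transporter GLAST, had VB ratios of 0.31, 0.33, 0.013 and 0.22 (mean 0.22 ± 0.14, SD, n = 4; limma adjusted p = 0.35), positive in each litter, with means of 0.20 and 0.23 in the Cy5 and Cy3 assignments. In cortex its mean was -0.26 ± 0.36 (SD, n = 4; limma adjusted p = 0.681).

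Of 6 calcium pump genes tested in each tissue, 3 were positive in VB and 2 in cortex. The 6 were not all the same genes, as Atp2a1 was tested in cortex alone. Atp2c1, a calcium and manganese pump of the Golgi, had 0.26 ± 0.10 in VB (SD, n = 3; limma adjusted p = 0.302). Over all arrays with a value, its means were -0.098 with mutant RNA in Cy5 and 0.65 with mutant RNA in Cy3. These take in a litter 3 array, which the litter mean leaves out. Atp2a1, a sarcoplasmic reticulum calcium pump known from muscle, had 0.31 ± 0.22 in cortex (SD, n = 4; limma adjusted p = 0.527), positive in all 4 litters. Kcnj16, a potassium channel subunit that takes part in potassium clearance by glia, had -0.17 ± 0.14 in VB (SD, n = 4; limma adjusted p = 0.459), negative in all 4 litters.

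**Figure D2:**
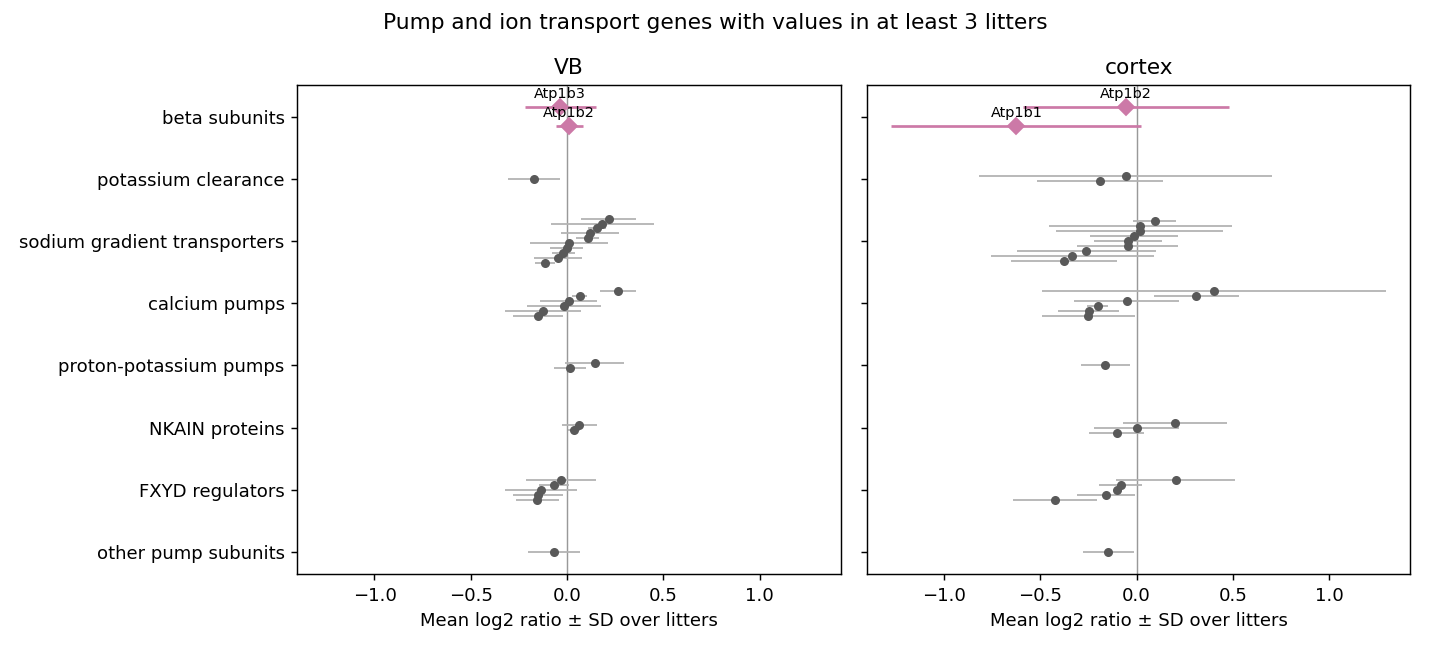
Mean log2 ratio (horizontal axis) with its SD over litters, for pump and ion transport genes with values in at least 3 litters, in VB (left) and cortex (right). Grey points are genes grouped by function and diamonds the beta subunit genes; in cortex 20 of 27 grey points are negative and in VB 14 of 27, and Atp1b1 was picked for its cortex value.

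The genes most like each beta subunit gene were found by Pearson correlation over the arrays on which it had a value. These arrays share tissue, litter and dye, so r is a description. For Atp1b1 over 14 arrays they were Got2, the mitochondrial aspartate aminotransferase (r = 0.868), Ppara, a lipid-sensing nuclear receptor (0.845), and Atad3aos, an antisense gene (0.815), among 4792 genes. For Atp1b2 over 15 arrays they were Asb5 (0.809), the germ cell RNA-binding gene Dazl (0.748) and Zfp467 (0.747), among 3961 genes. For Atp1b3 over 13 arrays they were Cd82, a tetraspanin (0.841), Slc22a20 (0.832) and Tmeff1 (0.826), among 4726 genes. Between the beta subunit genes, r was 0.425 for Atp1b1 and Atp1b2 over 13 arrays, 0.597 for Atp1b1 and Atp1b3 over 11 and 0.424 for Atp1b2 and Atp1b3 over 12. The values of Atp1b1 include the cortex arrays it was picked for.

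**Figure D3:**
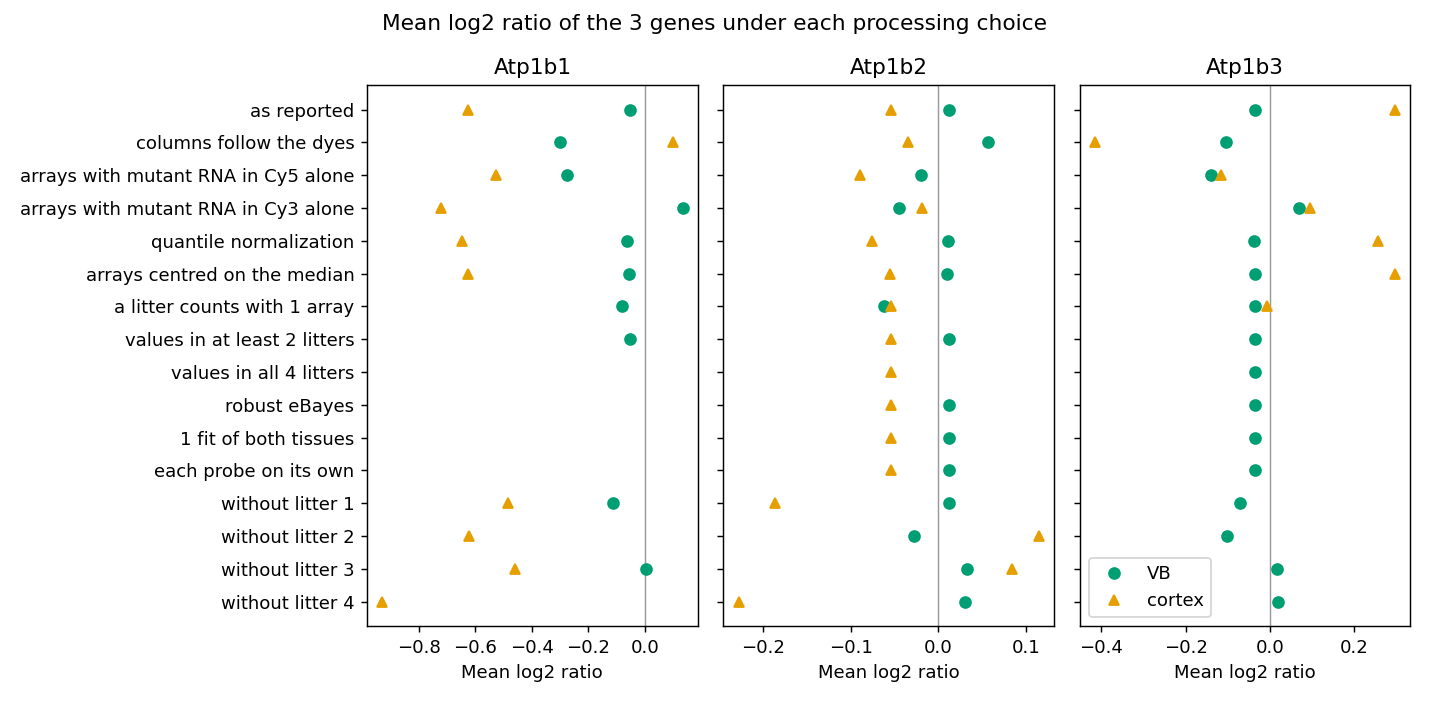
Mean log2 ratio (horizontal axis, with its own scale for each gene) of Atp1b1, Atp1b2 and Atp1b3 in VB (circles) and cortex (triangles) under each processing choice (rows). The cortex value of Atp1b1 lies between -0.93 and -0.46 in each row but the one that reads the columns as Cy5 over Cy3 (0.099), while the values of Atp1b2 in both tissues and of Atp1b3 in VB fall on either side of 0; a point is missing where the choice could not change the value or gave none.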

How the data were processed

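The authors deposited normalized log2 ratios (base assumed) per probe and array. The sources used here do not name the scanner, the background correction, the normalization or any filter on spots. Per the labels' protocols, cortex RNA was labelled through aminoallyl cDNA whereas VB cDNA went through template-switching PCR.

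Probes were matched to symbols by accession (15682), symbol (2966) or synonym (1694), and 27 symbols were kept as deposited. For each litter, a probe needed values on both dye-swapped arrays. The pair was averaged, then the probes of a gene. Features with values in at least 3 of 4 litters were tested against 0 per tissue with limma 3.58.1 in R 4.3.3 (two-sided, eBayes), with Benjamini-Hochberg adjustment over all features and calls at 0.05. The script was tested on simulated data. VB minus cortex was fitted without a litter block. The labels number litters alike in both tissues but do not say whether equal numbers mean the same litter, so pairing is not settled. Deviations of equally numbered litters correlated between the tissues at -0.0016, -0.015, -0.011 and 0.029 over 4248 features.

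Named genes were the 3 beta genes, Atp1b4 and the 3 list genes with the smallest p per tissue. For 1 of these list genes, values in the other tissue are given. The 3 most similar genes per member were also named. The tested FXYD genes were named as a group, whatever their p. Genes, lists and tests were chosen with earlier results of these data known. Alternatives covered column direction, dye assignment, normalization, missing values, variance model, shared fit, single probes, left-out litters and a litter block.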

Additional observations from a re-analysis of the deposited data

How the results depend on the processing

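Over the alternatives none of the tests of Atp1b1 in VB or of Atp1b2 and Atp1b3 in either tissue passed (limma adjusted p from 0.158 to 1.00) and no call changed. Read as Cy5 over Cy3, Atp1b1 was -0.30 in VB and 0.099 in cortex and Atp1b3 was -0.42 in cortex. The arrays with mutant RNA in Cy5 alone gave -0.28 for Atp1b1 and -0.020 for Atp1b2 in VB. Those with mutant RNA in Cy3 alone gave 0.13, -0.045 and 0.070 for Atp1b1, Atp1b2 and Atp1b3 in VB and -0.026 for the Atp1b2 tissue difference. Counting litters with 1 array gave -0.062 for Atp1b2 in VB and -0.0080 for its tissue difference. Leaving out 1 litter gave -0.93 to -0.46 for Atp1b1 and -0.23 to 0.12 for Atp1b2 in cortex, and in VB -0.11 to 0.0050 for Atp1b1, -0.028 to 0.033 for Atp1b2 and -0.10 to 0.019 for Atp1b3. With litter as a replicate block the Atp1b2 tissue difference was 0.20 (limma adjusted p = 0.865), the same value as without litter 1 (0.20, adjusted p = 0.905), since VB has no litter 1 value and the block leaves cortex litter 1 without a partner. Neither changed the call. For Atp1b3 that difference could not be fitted as planned, and counting litters with 1 array it was -0.027 (adjusted p = 0.973).

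Counts of called features depended strongly on the choices. In VB, against 50, there were 2784 read as Cy5 over Cy3, 1167 and 1678 in the Cy5 and Cy3 assignments alone, 19 after quantile normalization, 7 counting litters with 1 array, 19 in 1 fit of both tissues and 11 to 95 without 1 litter. In cortex, against 10, there were 253, 95 and 152 in the same first 3 settings, 2 counting litters with 1 array, 18 with values in at least 2 litters, 31 in 1 fit of both tissues, 16 for single probes and 0 to 98 without 1 litter (0 without litter 1 or 2, 5 without litter 3 and 98 without litter 4). The cause was not tested, and in 1 dye assignment alone genotype and dye cannot be told apart. Signal over background is unknown, which limits what missing and small values mean.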
